A study of Mus musculus with 6 samples.

Results

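The 9 genes described here are transcription factors that set or keep the macrophage lineage (Spi1, Cebpa, Cebpb, Irf8, Maf, Klf2 and Klf4) and receptors for colony-stimulating factors (Csf1r and Csf2rb). They were given by name, matched by symbol, and are 9 of the 54648 gene symbols in the count table. The libraries came from peritoneal cells elicited with thioglycollate, which the study describes as predominantly macrophages, of C57BL/6 mice aged 6 to 8 weeks. There were 3 libraries labelled WT and 3 labelled FOXO3 KO. The study used homozygous WT and FOXO3 KO littermates, and all mice received the same eliciting agent. The sources used here name no promoter or cell type that limits the knockout, and both sexes were used. The labels do not tie libraries to single animals, so p-values measure the spread between these libraries.

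Macrophages arise from myeloid progenitors under the control of the ETS-family factor PU.1, the product of Spi1, which works with the C/EBP factors and IRF8 to open and drive myeloid genes. Signals from M-CSF through the receptor tyrosine kinase encoded by Csf1r, and from GM-CSF through the common beta chain encoded by Csf2rb, sustain survival, proliferation and activation of these cells. FOXO3 is a forkhead transcription factor whose activity is restrained by growth-factor signalling through PI3K and AKT.

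None of the 9 genes was a differentially expressed gene (DEG), defined as a fold change over 1.5 with a Benjamini-Hochberg adjusted p under 0.05, between the libraries labelled FOXO3 KO and WT. The smallest adjusted p among them was 0.714 in edgeR's quasi-likelihood test, for Cebpb. The same rule called 0 of all 15608 genes tested, which is 0% of them. At an unadjusted p under 0.05, 1 of the 9 (Cebpb) passed, against 5.68% of all genes tested (887 of 15608). DESeq2 called 166 of 31378 genes (159 higher and 7 lower in FOXO3 KO) and 0 of the 9. Cebpb alone of the 9 was at an unadjusted p under 0.05 in DESeq2, against 4.71% of all genes. The DESeq2 shares are over all genes with a count, with no prior filter on low counts, unlike the edgeR share. The values of the WT and FOXO3 KO libraries did not overlap for 3 of the 9 (Cebpb, Maf and Klf4, all higher in FOXO3 KO), against 12.4% of all genes tested. The fitted fold change was above 0 on the log2 scale for 7 genes and below 0 for 2. Their median log2 fold change was 0.14, beside -0.01 over all genes tested.

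Foxo3 itself did not follow the labels in every library. It stood at 117, 107 and 73.1 CPM, that is, counts scaled to a common library total, in WT 1, WT 2 and WT 3, and at 4.71, 104 and 4.29 CPM in the libraries labelled FOXO3 KO 1, FOXO3 KO 2 and FOXO3 KO 3. The library labelled FOXO3 KO 2 therefore had Foxo3 within the WT range, and the fold change of each of the 9 genes is given with and without it. Foxo3 was itself not a DEG with all libraries (log2 fold change -1.40, SE 1.22, adjusted p = 0.859 in edgeR). Without FOXO3 KO 2 the log2 fold change of Foxo3 was -4.46 (SE 0.29, adjusted p = 0.105 in edgeR). WT 3 also stood apart, with Pearson correlations of log2 CPM of 0.929 to 0.956 with the other libraries, against 0.986 to 0.994 among those 5. Xist, transcribed from the inactive X chromosome, was at 871 CPM in WT 3 and 1130 CPM in FOXO3 KO 3, and at no more than 5 counts in each of the other libraries. With FOXO3 KO 2 left out and Xist abundance as a covariate, Foxo3 was a DEG (log2 fold change -4.35, adjusted p = 0.00536 in edgeR). It was also a DEG with FOXO3 KO 2 and WT 3 both left out (-4.64, adjusted p = 0.00182 in edgeR). Both fits were chosen after seeing the data. Libraries held 28083393 to 36424117 counts. The 9 genes had between 1525 counts (Klf4 in WT 3) and 39681 counts (Csf1r in WT 1).

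**Figure D1:**
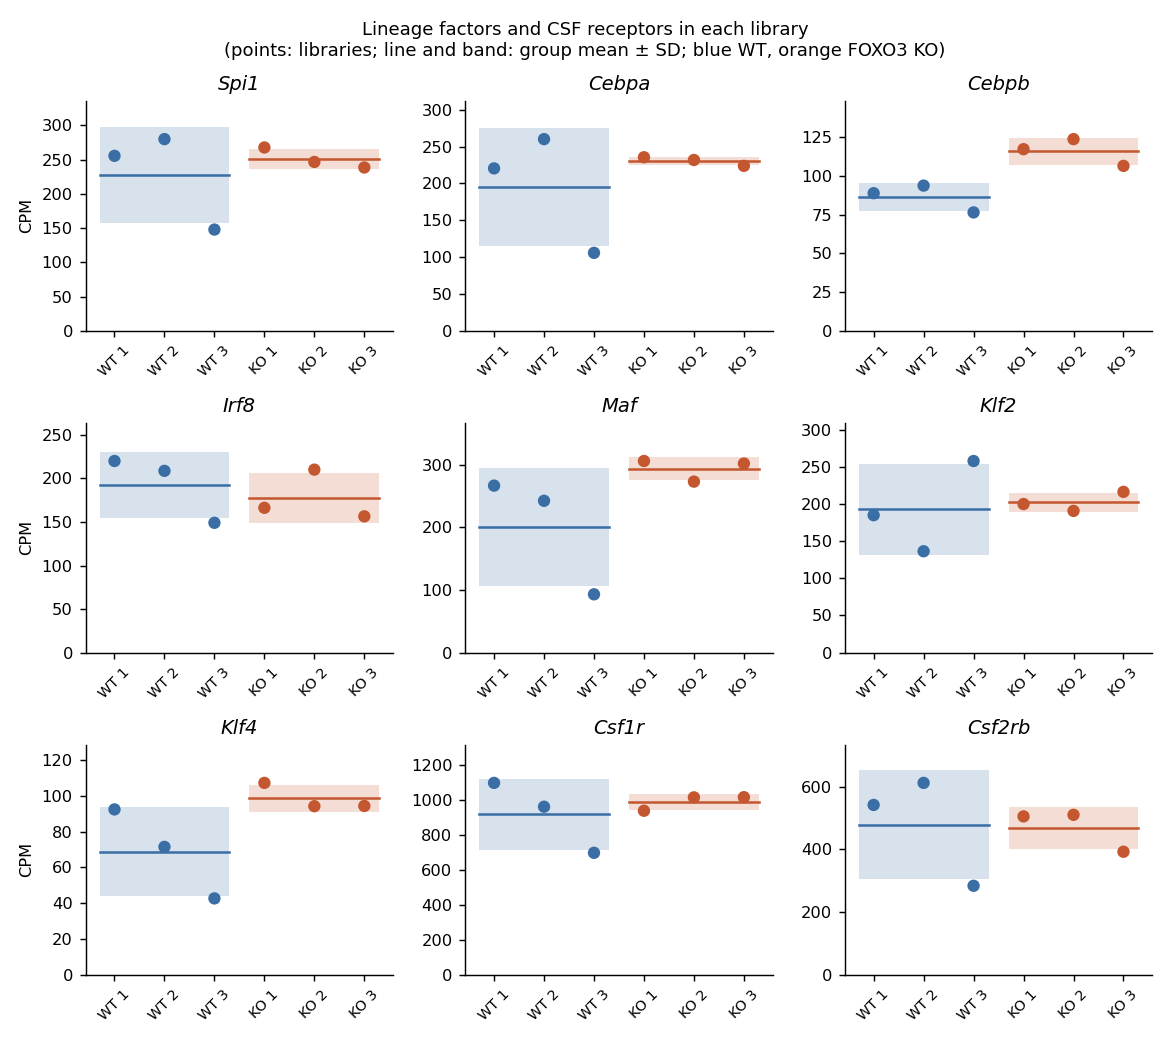
CPM of each of the 9 genes (y axes from 0) in each library (x axes), with WT in blue and the libraries labelled FOXO3 KO in orange; lines are group means and bands are 1 SD. WT 3 is the lowest library in every panel but that of Klf2, where it is the highest, and the groups are separate only for Cebpb, Maf and Klf4.

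PU.1 is required for the formation of macrophages and B cells and binds enhancers throughout the myeloid genome. Spi1 (GRCm38/mm10 chr2:91082390-91115756, plus strand) was at 255.5, 279.9 and 148 CPM in WT 1, WT 2 and WT 3. In FOXO3 KO 1, 2 and 3 it was at 268, 247 and 238.5 CPM. The FOXO3 KO libraries lay inside the WT range, and WT 3 was the lowest of all. The means were 228 ± 70.3 CPM in WT and 251 ± 15.1 CPM in FOXO3 KO (SD, n = 3 each). The log2 fold change was 0.14 (SE 0.24, adjusted p = 0.908 in edgeR), with a 95% interval from -0.45 to 0.73. It was 0.15 (SE 0.31) without FOXO3 KO 2, but turned to -0.08 (SE 0.09) without WT 3.

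C/EBP alpha commits progenitors to the granulocyte and monocyte lineages, whereas C/EBP beta is induced during inflammation and macrophage activation. Cebpa (chr7:35119293-35121928, plus strand) was at 220, 260 and 106 CPM in the WT libraries and at 235.5, 232 and 224 CPM in the FOXO3 KO libraries. Again the FOXO3 KO values were close together and within the WT range. For Cebpa the log2 fold change was 0.24 (SE 0.32, adjusted p = 0.892 in edgeR, 95% interval from -0.53 to 1.01). It was 0.23 without FOXO3 KO 2 and turned to -0.05 without WT 3.

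Cebpb (chr2:167688915-167690418, plus strand) was the one gene of the 9 with a small unadjusted p. It was at 88.9, 93.9 and 76.5 CPM in WT 1, WT 2 and WT 3, and at 117, 124 and 107 CPM in FOXO3 KO 1, 2 and 3. Every library labelled FOXO3 KO was above every WT library, and FOXO3 KO 2, in which Foxo3 was at the WT level, was the highest. The means were 86.4 ± 8.94 CPM in WT and 116 ± 8.77 CPM in FOXO3 KO (SD, n = 3 each), a fitted fold of 1.34. This gave a log2 fold change of 0.42 (SE 0.12, 95% interval from 0.14 to 0.71), with an unadjusted p of 0.0110 and an adjusted p of 0.714 in edgeR. This placed Cebpb at rank 235 of 15608 genes by p. Without FOXO3 KO 2 the log2 fold change was 0.37 (SE 0.15, unadjusted p = 0.0497, adjusted p = 0.994 in edgeR), and without WT 3 it was 0.35 (SE 0.09, unadjusted p = 0.00663, adjusted p = 0.513 in edgeR). In the 4 libraries with little Xist the difference between the group means was 0.40 on the log2 scale (0.36 without FOXO3 KO 2). Between the 2 libraries with abundant Xist (WT 3 and FOXO3 KO 3) it was 0.48. The Xist comparison has 1 library in each group on the abundant side and no test.

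Some reads at Cebpb could have come from its neighbour. Of all runs of 76 bases, the read length, in Cebpb transcripts, 16.7% also occur on the opposite strand in transcripts of Tmem189, and the sources used here do not say whether strand was used in counting. Tmem189 was at 362, 417 and 140 CPM in WT and 411, 373 and 305 CPM in FOXO3 KO, with overlapping groups and a log2 fold change of 0.24 (SE 0.40, adjusted p = 0.904 in edgeR). Its part in the Cebpb values was not tested.

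IRF8 directs progenitors towards monocytes and dendritic cells and away from granulocytes. Irf8 (chr8:120736358-120756694, plus strand) was at 220, 209 and 149 CPM in WT and at 166, 210 and 156 CPM in FOXO3 KO. The groups overlapped, and FOXO3 KO 2 was near the level of WT 1 and WT 2 while FOXO3 KO 1 and FOXO3 KO 3 were below them. The log2 fold change was -0.12 (SE 0.19, adjusted p = 0.905 in edgeR, 95% interval from -0.59 to 0.35). It was -0.25 (SE 0.21) without FOXO3 KO 2 and -0.26 (SE 0.13) without WT 3. With both left out, a comparison chosen after seeing the data that leaves 2 libraries in each group, it was -0.41, with an unadjusted p of 0.00763 and an adjusted p of 0.338 in edgeR.

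Maf encodes c-MAF, which restrains self-renewal of differentiated macrophages and is a marker of tissue-resident cells. Maf (chr8:115682942-115707794, minus strand) was at 267, 242 and 93.1 CPM in WT and at 306, 273 and 302 CPM in FOXO3 KO. The groups did not overlap, but WT 1 lay just under FOXO3 KO 2, and WT 3 was far below all others. The fitted log2 fold change was 0.55 (SE 0.38, adjusted p = 0.844 in edgeR, 95% interval from -0.37 to 1.46), the highest of the 9. Without FOXO3 KO 2 it was 0.60 (SE 0.46), and without WT 3 it was 0.22 (SE 0.09). The difference was 0.18 on the log2 scale among the libraries with little Xist (0.27 without FOXO3 KO 2) and 1.69 between WT 3 and FOXO3 KO 3. WT 3 is the only WT library with abundant Xist, so Xist and WT 3 cannot be told apart here. Over Spi1, Maf was at a ratio of CPM of 0.846 ± 0.207 in WT and 1.17 ± 0.0836 in FOXO3 KO (SD, n = 3 each). In an exact two-sided permutation test the ratio gave p = 0.1, the smallest p that 3 against 3 can give, and 0.5 after adjustment over the 5 ratios of this kind that were computed.

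KLF4 acts in monocyte differentiation and alternative activation, and KLF2 keeps lymphocytes and myeloid cells in a quiescent state. Klf4 (chr4:55527143-55532466, minus strand) was at 92.5, 71.5 and 42.6 CPM in WT and at 107, 94.3 and 94.4 CPM in FOXO3 KO. The groups did not overlap, with WT 1 just below FOXO3 KO 2. The log2 fold change was 0.52 (SE 0.27, unadjusted p = 0.104, adjusted p = 0.839 in edgeR, 95% interval from -0.14 to 1.18). It was 0.55 (SE 0.33) without FOXO3 KO 2 and 0.28 (SE 0.13) without WT 3. Within the libraries with little Xist the difference was 0.30 on the log2 scale (0.40 without FOXO3 KO 2), and between WT 3 and FOXO3 KO 3 it was 1.14. As for Maf, Xist and WT 3 cannot be told apart in this difference. With Xist abundance as a covariate the log2 fold change was 0.58 (SE 0.21), with an unadjusted p of 0.0334 and an adjusted p of 0.464 in edgeR, in a fit where 10.3% of all genes reached an unadjusted p under 0.05.

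Klf2 (chr8:72319033-72321656, plus strand) went the other way in WT 3. It was at 185, 136 and 258 CPM in WT and at 200, 191 and 216 CPM in FOXO3 KO. The FOXO3 KO libraries lay within the WT range, between WT 1 and WT 3. For Klf2 the log2 fold change was 0.07 (SE 0.23, adjusted p = 0.954 in edgeR, 95% interval from -0.50 to 0.63). It was 0.11 without FOXO3 KO 2, 0.34 (SE 0.14) without WT 3 and -0.13 without WT 2.

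FOXO3 is a DNA-binding factor, and the promoter sequences of Cebpb and Klf4 are shown because both genes were separate between the groups. RefSeq promoters (GRCm38.p6) were matched for 5 of the 9 genes. No promoter was matched for Spi1, Maf, Csf1r or Csf2rb, so these were not searched. The 250 bases before the annotated start are printed from 5′ to 3′ on the gene's strand. Capitals mark the core letters of a forkhead site (TGTTTA) and of a cyclic AMP response element (TGACG, or CGTCA where it lies on the opposite strand).
Cebpb, chr2:167688665-167688914, plus strand: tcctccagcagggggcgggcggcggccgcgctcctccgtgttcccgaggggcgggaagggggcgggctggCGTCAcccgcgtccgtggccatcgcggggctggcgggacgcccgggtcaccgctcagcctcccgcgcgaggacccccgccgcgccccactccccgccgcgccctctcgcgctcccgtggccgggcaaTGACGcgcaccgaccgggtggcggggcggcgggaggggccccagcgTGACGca
Klf4, chr4:55532476-55532725, minus strand: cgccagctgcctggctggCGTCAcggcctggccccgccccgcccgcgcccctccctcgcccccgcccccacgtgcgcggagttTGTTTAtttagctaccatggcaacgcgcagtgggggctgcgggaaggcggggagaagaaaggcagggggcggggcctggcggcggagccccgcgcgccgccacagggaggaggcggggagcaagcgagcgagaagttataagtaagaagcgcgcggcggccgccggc
Both strands were searched in 32851 RefSeq promoters of the same length. TGTTTA was in 12% of them and, among the matched genes, in the Klf4 promoter, 167 bases before the start. The longer forkhead letters GTAAACA were in 3.17% of promoters and in none of the matched genes. TGACG was in 17.8% of promoters, and was found at 180, 53 and 7 bases before the start of Cebpb, once in Klf4 and once in Klf2. The PU.1 letters GAGGAAG (10.6% of promoters) and the C/EBP palindrome TTGCGCAA (0.164%) were in no matched gene. A match shows only that the letters are there, and no binding was measured.

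Csf1r encodes the receptor for M-CSF and IL-34, on which most macrophages depend. It was the most abundant of the 9, at 1099, 962 and 698 CPM in WT and at 939, 1016 and 1017 CPM in FOXO3 KO. The groups overlapped, and WT 3 was the lowest. For Csf1r the log2 fold change was 0.11 (SE 0.21, adjusted p = 0.916 in edgeR), with a 95% interval from -0.40 to 0.61. It was 0.09 without FOXO3 KO 2 and turned to -0.05 without WT 3. Of its 76-base runs, 13.9% also occur on the opposite strand in Hmgxb3, which was at 11.2 to 14.5 CPM in all 6 libraries.

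Csf2rb encodes the beta chain shared by the receptors for GM-CSF, IL-3 and IL-5, and mice carry a close copy, Csf2rb2, whose product serves IL-3 only. Csf2rb (chr15:78325752-78353847, plus strand) was at 541, 612 and 283 CPM in WT and at 505, 510 and 392 CPM in FOXO3 KO. The groups overlapped, and in each of them the library with abundant Xist was the lowest. The log2 fold change was -0.03 (SE 0.30, adjusted p = 0.985 in edgeR, 95% interval from -0.76 to 0.70). It was -0.09 without FOXO3 KO 2 and -0.29 (SE 0.14) without WT 3.

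Csf2rb2 lies beside it (chr15:78282507-78305721, minus strand) and was at 366, 425 and 124 CPM in WT and at 305.5, 334 and 198 CPM in FOXO3 KO. Its library order was the same as that of Csf2rb. The log2 fold change of Csf2rb2 was -0.13 (SE 0.46, adjusted p = 0.957 in edgeR), and -0.28 (SE 0.56) without FOXO3 KO 2. The longest open reading frames have 2691 bases in Csf2rb and 2637 in Csf2rb2, and 95.2% of 2631 aligned bases are identical. Of the 76-base runs of Csf2rb transcripts, 7% also occur in Csf2rb2. The following run, bases 485 to 560 of the Csf2rb reading frame, is identical in both genes and is shown because a read from it fits either.
Csf2rb and Csf2rb2, shared run: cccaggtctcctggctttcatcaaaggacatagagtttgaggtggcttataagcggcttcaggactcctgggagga
The values of each gene therefore depend on how the authors' counting divided such reads. Summed, the pair was at 908, 1037 and 407 CPM in WT and at 810, 844 and 590 CPM in FOXO3 KO. Csf2rb took 59.0 to 69.6% of the sum in WT and 60.4 to 66.5% in FOXO3 KO, and the groups overlapped (exact two-sided permutation test, p = 0.9, smallest possible p 0.1).

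Among the other CSF ligands and receptors, Csf1, the gene for M-CSF, had the smallest p. It was at 11.2, 7.62 and 11.4 CPM in WT and at 14.95, 16.2 and 19.9 CPM in FOXO3 KO. Every library labelled FOXO3 KO was above every WT library. The fitted log2 fold change was 0.76 (SE 0.21), with an unadjusted p of 0.0103 and an adjusted p of 0.714 in edgeR. It was 0.79 (SE 0.25, adjusted p = 0.994 in edgeR) without FOXO3 KO 2 and 0.86 without WT 3, so its direction did not rest on either library. FOXO3 KO 2, in which Foxo3 was at the WT level, was above FOXO3 KO 1.

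Csf2ra, the GM-CSF-specific alpha chain, was at 156, 165 and 82.3 CPM in WT and at 187, 160 and 178 CPM in FOXO3 KO (log2 fold change 0.38, SE 0.27, adjusted p = 0.844 in edgeR, and 0.44 without FOXO3 KO 2). Csf3r, the G-CSF receptor, was at 137, 139 and 116 CPM in WT and at 159, 139 and 164 CPM in FOXO3 KO (log2 fold change 0.24, SE 0.12, adjusted p = 0.839 in edgeR, and 0.31 without FOXO3 KO 2). Flt3, a receptor of progenitors and dendritic cells, was at 8.89, 8.65 and 9.95 CPM in WT and at 12.2, 9.85 and 18.1 CPM in FOXO3 KO (log2 fold change 0.54, SE 0.24, adjusted p = 0.839 in edgeR). Csf2ra and Flt3 overlapped between the groups, while for Csf3r the FOXO3 KO 2 library was barely above WT 2. Il5ra went the other way and was highest in WT 3, with overlapping groups. It was at 18.4, 10.1 and 80.2 CPM in WT and at 4.71, 9.85 and 17.75 CPM in FOXO3 KO. Its log2 fold change was -1.75 (SE 0.87, adjusted p = 0.839 in edgeR), and -1.68 without FOXO3 KO 2 and -0.39 without WT 3. Of the 13 genes in this list 8 had enough counts to be tested. None was a DEG, against 0% of all genes tested. The fitted log2 fold change was above 0 for 5 of the 8 and below 0 for 3, with a median of 0.16. In this fit 1 reached an unadjusted p under 0.05 (Csf1, against 5.68% of all genes tested). Without FOXO3 KO 2 there were 2, Csf1 and Flt3, against 4.3%. The ligand genes Csf2, Csf3, Il3, Il5 and Il34 were too low to test in the fit with all 6 libraries. Il34, the other ligand of CSF1R, was at 0.194, 0.106 and 0.252 CPM in WT and at 0.283, 2.19 and 0.809 CPM in FOXO3 KO. These groups did not overlap, but FOXO3 KO 1 held only 8 counts and WT 3 held 9. The highest library was FOXO3 KO 2, with 60 counts, in which Foxo3 was at the WT level. Such low counts do not allow a fold change of Il34 to be read. Il3 had no count in any library, and Csf2 had counts only in FOXO3 KO 3 (5 counts).

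**Figure D2:**
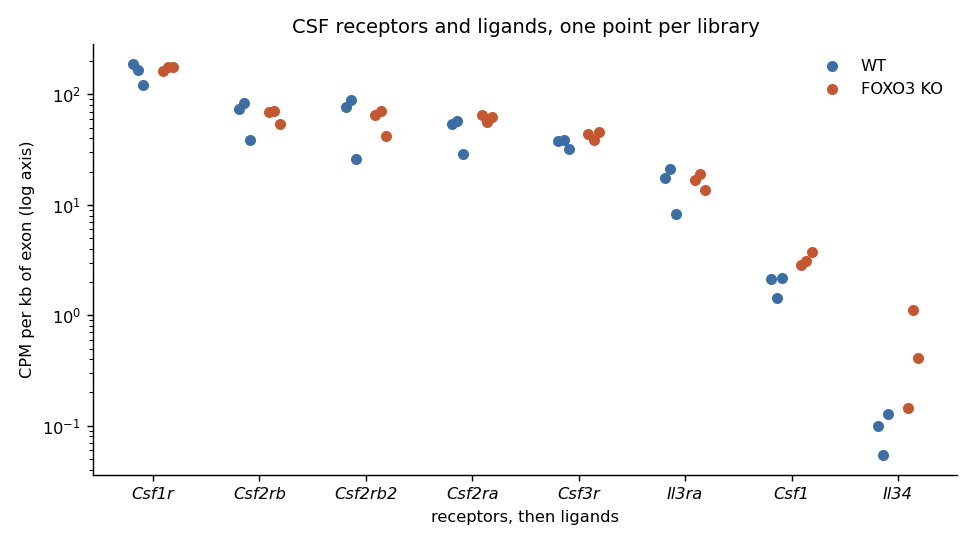
Receptor and ligand levels in CPM per kb of exon (y axis, log scale) for the genes on the x axis, 1 point per library, WT in blue and the libraries labelled FOXO3 KO in orange. Csf1 is the ligand with separate groups at a level that was tested. The receptor points of the groups overlap or, for Csf3r, touch.

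Per kb of exon, the mean level over the 3 WT libraries was highest for Csf1r, at 159 ± 35.3 CPM per kb, followed by Klf2 at 104.5 ± 33.1, Spi1 at 84.5 ± 26.1, Cebpa at 74.1 ± 30.4, Csf2rb at 65.8 ± 23.8 and Cebpb at 57.5 ± 5.94 CPM per kb (SD, n = 3). Irf8 at 27.3 ± 5.40, Maf at 24.4 ± 11.4 and Klf4 at 22.6 ± 8.20 CPM per kb were the lowest. From Klf2 to Cebpb, neighbours in this order differed by less than the larger of their SDs in WT, as did Irf8, Maf and Klf4. In FOXO3 KO the levels ran from 172 ± 7.73 CPM per kb for Csf1r to 25.2 ± 4.04 for Irf8, and Cebpb (77.1 ± 5.81) stood above Csf2rb (64.4 ± 9.16). Csf1 was at 1.91 ± 0.403 CPM per kb in WT and 3.22 ± 0.481 in FOXO3 KO, far under its receptor.

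No other gene of the pathway passed the thresholds, and nor did any of all 15608 genes tested (0%). Among 37 other macrophage and myeloid transcription factors none was a DEG, and 4 reached an unadjusted p under 0.05, against 5.68% of all genes tested. Without FOXO3 KO 2 there were 5 (4 higher and 1 lower), against 4.3%. Higher in FOXO3 KO were Ets2 (log2 fold change 0.46, SE 0.12, unadjusted p = 0.00798 in edgeR), an ETS factor downstream of CSF1R signalling, Id2 (0.50, SE 0.14, unadjusted p = 0.0104), an inhibitor of basic helix-loop-helix factors, and Cebpd (0.56, SE 0.23, unadjusted p = 0.0451), an inflammation-induced C/EBP factor. Lower was Spic (-1.38, SE 0.41, unadjusted p = 0.0143 in edgeR), the factor of red pulp and other iron-recycling macrophages, at no more than 1.51 CPM. Without FOXO3 KO 2 their log2 fold changes were 0.52, 0.37, 0.71 and -1.56, and Nr4a1 (0.57) also reached an unadjusted p under 0.05. Their adjusted p-values with all 6 libraries were 0.714 to 0.839 in edgeR, and the median log2 fold change of the list was 0.09.

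Ets2 was at 38.2, 38.8 and 47.0 CPM in WT and at 58.1, 52.0 and 60.4 CPM in FOXO3 KO, with no overlap. Id2 was at 68.2, 63.6 and 75.4 CPM in WT and at 88.5, 115 and 90.1 CPM in FOXO3 KO, with no overlap, and as for Cebpb the library labelled FOXO3 KO 2 was the highest. Gata6, the factor of resident large peritoneal macrophages, was at 5.37, 3.49 and 41.2 CPM in WT and at 5.71, 16.9 and 6.57 CPM in FOXO3 KO. Its highest library was WT 3, and the groups overlapped.

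Of 21 genes of CSF receptor signalling, among them the kinases Jak2 and Lyn and the STAT factors, none reached an unadjusted p under 0.05, and the median log2 fold change was 0.02. Of 10 genes known in textbooks to depend on PU.1, such as Itgam, Cd14, Ctss and Msr1, none did either, with a median of 0.13. Both counts are read against the 5.68% of all genes tested, and both were also 0 without FOXO3 KO 2. Without WT 3, Socs3 (log2 fold change 1.18, unadjusted p = 0.00451) and Fgr (0.29, unadjusted p = 0.0297) of the signalling genes were under 0.05 in edgeR. So was Msr1 (0.39, unadjusted p = 0.00598 in edgeR) of the PU.1-dependent genes, against 8.41% of all genes tested in that fit. Their adjusted p-values were 0.510, 0.537 and 0.513 in edgeR.

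**Figure D3:**
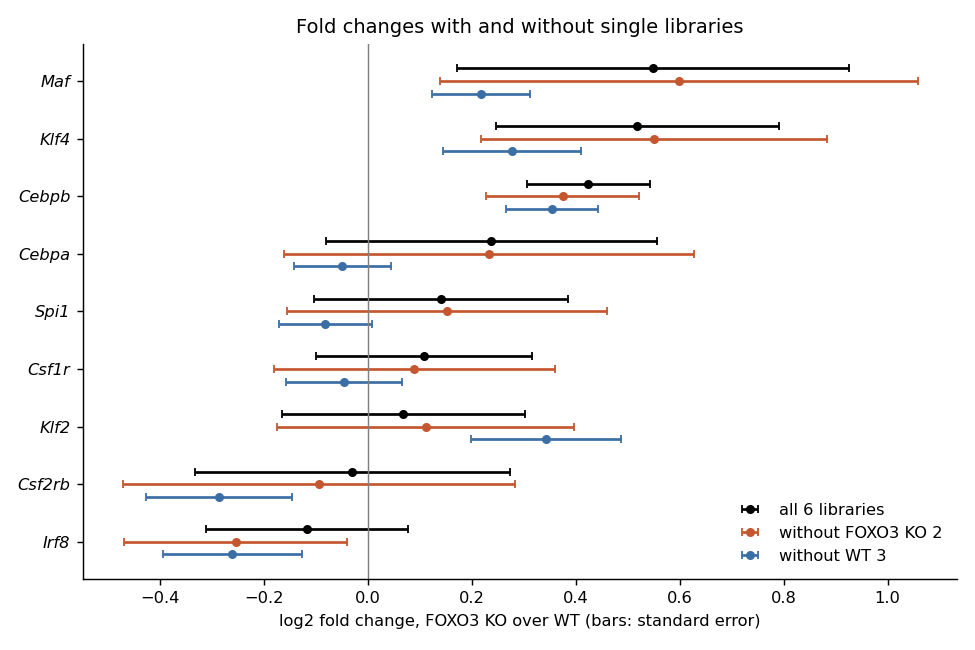
Log2 fold changes of FOXO3 KO over WT (x axis) of the 9 genes (y axis) from the quasi-likelihood fit with all 6 libraries (black), without FOXO3 KO 2 (orange) and without WT 3 (blue); bars are 1 standard error. Cebpb lies between 0.35 and 0.42 in the 3 fits, while Spi1, Cebpa and Csf1r lie below 0 and Maf and Klf4 move closer to 0 once WT 3 is left out.

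Leaving out the library labelled FOXO3 KO 2 turned the direction of none of the 9 genes. Again 1 of the 9 (Cebpb) reached an unadjusted p under 0.05, against 4.3% of the 16217 genes tested in that fit, and 3 of the 9 (Cebpb, Maf and Klf4) did not overlap, against 20.3%. The median log2 fold change was 0.15. DESeq2 without that library gave 0 of the 9 at an unadjusted p under 0.05, against 3.1% of all genes with a count.

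WT 3 had more weight. It was the lowest of the 6 libraries for 8 of the 9 genes and the highest for Klf2. Over all genes tested it was the lowest for 37.5% and the highest for 37.2%, so that an extreme position of WT 3 was common in the whole table. On the log2 scale WT 3 was below the mean of the other 5 libraries by values from -0.35 (Irf8) to -1.57 (Maf), with -1.14 for Cebpa and -1.09 for Klf4, and Klf2 was above it by 0.49. Among the other 5 libraries the highest value of each gene was 1.17 to 1.59 times the lowest. Without WT 3 the median log2 fold change of the 9 genes was -0.05.

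WT 3 also differed in the markers of other cells. The summed level of 8 B cell markers (such as Cd79a, Cd79b and Pax5) was 1369, 703 and 5402 CPM in WT and 293, 592 and 1262 CPM in FOXO3 KO. Each of the 8 had its highest value in WT 3. The 8 mast cell markers summed to 228, 131 and 798 CPM in WT and 209, 103 and 301 CPM in FOXO3 KO. Of the 8 T cell markers 7 were highest in WT 3 and 1, Il7r, was lowest. Il7r made up most of the T cell sum in each library, and that sum was lowest in WT 3 (328 CPM). Il7r was at 213 CPM in WT 3 and at 345 to 675 CPM in the other libraries. The 10 macrophage markers, which include Adgre1, Cd68 and Lyz2, were present in every library. They summed to 15440, 18320 and 13410 CPM in WT and 15560, 16850 and 14990 CPM in FOXO3 KO. Of the 10, 7 were lowest in WT 3 and 3 (Adgre1, C1qa and Itgam) were highest there. The part of these cells in the low values of WT 3 was not tested. In bulk libraries fewer cells of a type and less RNA per cell cannot be told apart.

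Sums of some other marker lists were higher in libraries labelled FOXO3 KO, although no marker was a DEG in the edgeR fit with all 6 libraries. FOXO3 KO 2 did not follow its label in each list. It was level with WT 2 in the neutrophil sum and the lowest library in the red blood cell sum. The 10 neutrophil markers summed to 164, 179 and 123 CPM in WT and to 448.5, 179 and 375 CPM in FOXO3 KO, with Ly6g, Mpo, Elane and Camp at no more than 0.168 CPM in any library. Csf3r made up most of this sum in WT and in FOXO3 KO 2. S100a8 was at 12.9, S100a9 at 6.93 and Cxcr2 at 2.23 CPM in FOXO3 KO 2, above each WT library and below FOXO3 KO 1 and FOXO3 KO 3. Retnlg (17.0 CPM) and Ltf (0.365 CPM) were within the WT range in FOXO3 KO 2, and both overlapped between the groups. The 8 mesothelial and fibroblast markers summed to 58.4, 39.8 and 31.6 CPM in WT and to 66.8, 365 and 112 CPM in FOXO3 KO, and red blood cell markers to 24.5, 9.70 and 27.0 CPM in WT and 117, 9.23 and 182 CPM in FOXO3 KO. The part of the neutrophil, mesothelial and fibroblast, and red blood cell markers in the values of Cebpb, Maf, Klf4 and Csf1 was not tested.

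**Figure D4:**
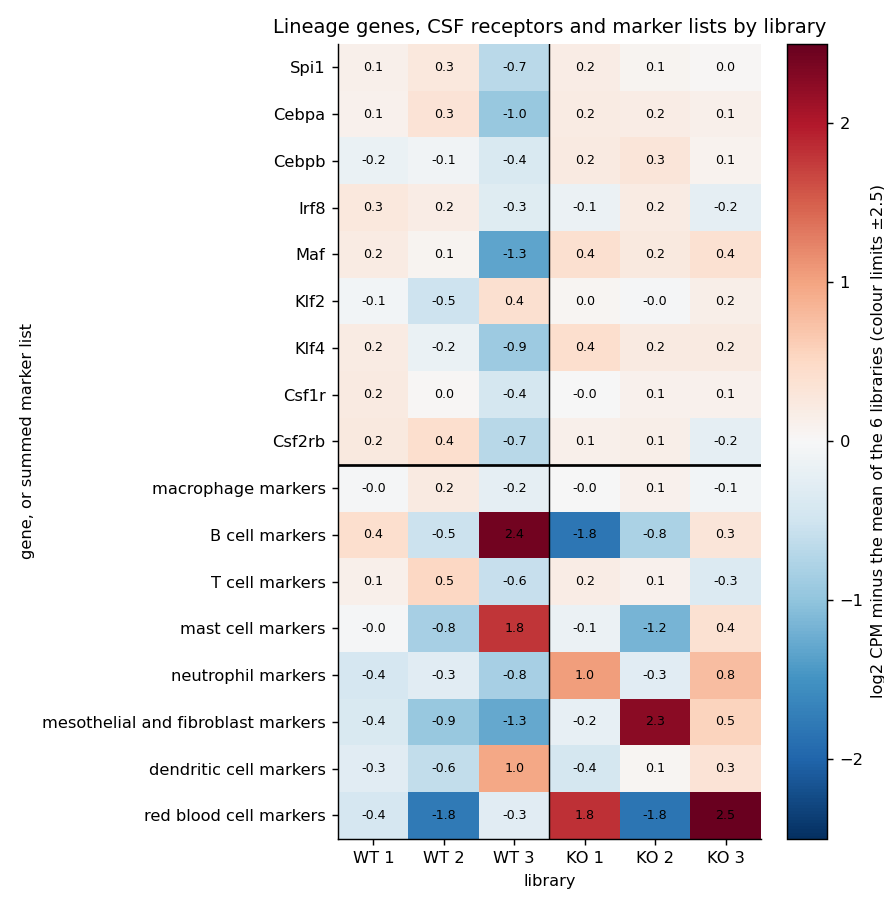
Log2 CPM minus the mean of the 6 libraries (colour and printed values) for the 9 genes, above the line, and for summed marker lists, below it, in each library (x axis). The WT 3 column is blue for 8 of the 9 genes and red for Klf2, B cell, mast cell and dendritic cell markers. The dendritic cell sum in WT 3 is mostly Ccr7 (119 of 179 CPM). Of the 8 dendritic cell markers 1 was highest in WT 3 and 4 were lowest.

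Across the 6 libraries the 9 genes varied by different amounts. The SD of log2 CPM was highest for Maf (0.65), then Klf4 (0.48), Cebpa (0.47), Csf2rb (0.40), Spi1 (0.34), Klf2 (0.30), Cebpb (0.26), Irf8 (0.25) and Csf1r (0.23), beside a median of 0.25 over all genes tested. Spi1 and Cebpa varied together (Pearson r = 0.99 over the 6 libraries, 0.81 without WT 3). Maf and Spi1 had r = 0.93 over 6 libraries and -0.53 without WT 3, so that their likeness rested on that library. Maf and Klf4 had r = 0.97, and 0.89 without WT 3. Klf2 ran against Csf2rb (r = -0.90, and -0.85 without WT 3). The genes most like Cebpb over the 6 libraries were Guca1a, Raet1e and Dusp16 (r = 0.99 each), and those most like Csf1r were Myo9a, Sh3tc1 and Ier5l (r = 0.99 each). All these correlations are descriptions over few libraries that share WT 3 and the group labels.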

How the data were processed

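RNA of these peritoneal cells, labelled as macrophages, had been sequenced as paired 76 bp reads in 3 libraries labelled WT and 3 labelled FOXO3 KO. The authors deposited estimated counts per gene symbol with no normalization; 81.4% of the values were whole to within 0.01, and the rest were rounded to whole counts. The submitters' processing notes name STAR 2.6.1d, kallisto 0.46.0, DESeq2 and mm10, without roles; the annotation is not given in the sources used here. Groups were taken from the genotype labels. The 9 genes and all lists were chosen with earlier results of these data known.

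Genes passing filterByExpr were compared with edgeR 4.0.16 (R 4.3.3) by the quasi-likelihood test after TMM, all 6 libraries as labelled, and p-values were adjusted by Benjamini-Hochberg across the tested genes. CPM used TMM-scaled totals, and correlations used log2(CPM + 0.5). A standard error was the absolute log2 fold change divided by the square root of F, and 95% intervals used the fit's total degrees of freedom. Libraries held 28083393 to 36424117 counts. Alternatives were DESeq2 1.42.0, limma-voom (3.58.1), edgeR's likelihood ratio test, other size factors and filters, a replicate block, an Xist covariate and leaving out each library. The script was tested on simulated data. Positions and exon lengths came from GENCODE's GRCm38 annotation, and promoters from RefSeq. Named genes were the 9, Foxo3, up to 5 list genes with the smallest p, and Gata6, Cebpd, Csf1, Csf2ra, Csf2rb2 and Csf3r. The genes most like Cebpb and Csf1r were the 3 with the highest r. Some genes of the lists are not reported here by name.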

Additional observations from a re-analysis of the deposited data

How the results depend on the processing

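None of the 9 genes was a DEG under any setting tried. Over all genes the calls were 109 with the likelihood ratio test, 166 with DESeq2, 104 for DESeq2 with FOXO3 KO 2 left out, 17 for the Xist covariate with FOXO3 KO 2 left out, 4 with FOXO3 KO 2 and WT 3 both left out, and 0 in the other settings. One of them, Cebpb, reached an unadjusted p under 0.05 in the reported fit and under the likelihood ratio test, DESeq2, limma-voom, other size factors and other filters. The count was 2 with the replicate block (Cebpb and Klf4, against 6.62% of all genes), 2 with the Xist covariate (Cebpb and Klf4, against 10.3%), and 1 to 2 when each library was left out in turn (Klf4 joined without WT 1, against 5.09%). Under settings chosen after seeing the data it was 0 for DESeq2 with FOXO3 KO 2 left out (3.1% of all genes), 3 for the Xist covariate with FOXO3 KO 2 left out (Cebpb, Maf and Klf4, against 14.5%) and 2 with FOXO3 KO 2 and WT 3 both left out (Cebpb and Irf8, against 8.87%). The cause of these changes was not tested.

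The directions of 5 genes turned in some settings. With each library left out, Spi1 ran from -0.082 to 0.32, Cebpa from -0.050 to 0.50, Klf2 from -0.13 to 0.34, Csf1r from -0.047 to 0.25 and Csf2rb from -0.29 to 0.19. With FOXO3 KO 2 and WT 3 both left out, Spi1 was at -0.079, Cebpa at -0.063 and Csf1r at -0.075. Csf2rb was at 0.028 with limma-voom, 0.034 with the replicate block, 0.032 with the Xist covariate and 0.10 with the Xist covariate and FOXO3 KO 2 left out. Cebpb, Maf and Klf4 were above 0 and Irf8 below 0 in every setting run. Deviations from the group means of same-numbered libraries correlated at 0.34, -0.06 and 0.57. Libraries with different numbers were not compared in this way, so these values cannot decide whether the numbers pair the mice. The reported fit did not take them as pairs. Each value rests on at least 1525 counts, with 3 libraries in a group. The standard error of each gene was lower without WT 3 than with all libraries. It went from 0.24 to 0.09 for Spi1 and from 0.38 to 0.09 for Maf. The cause of the turns was not tested.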
